A study of Homo sapiens with 4 samples.

Results

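The genes described here are the CDK inhibitors, 8 genes that encode proteins restraining the cyclin-dependent kinases: CDKN1A, CDKN1B and CDKN1C of the CIP/KIP family, CDKN2A, CDKN2B, CDKN2C and CDKN2D of the INK4 family, and the phosphatase gene CDKN3. They were chosen by symbol. Of the 8, 7 had a row among the 18567 genes analysed, and all 7 passed the filter on low values that left 16817 genes for testing. CDKN1C, which lies on chromosome 11 of hg38 from 2883213 to 2885775, was not analysed here.

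RNA was sequenced from Kasumi-1 cells, an established acute myeloid leukemia (AML) line that carries the RUNX1::RUNX1T1 fusion. There were 2 control samples, called NC, and 2 samples with short hairpin RNA against ANP32B, called sh-ANP32B. By their labels the NC cells had no treatment and no hairpin, but the study's methods mention a control hairpin, so any effect of infection and selection cannot be told apart from that of the knockdown if the labels are right. The sources used here do not give the ANP32B hairpin of each sample or say whether the replicates were separate cultures, so p-values measure the spread between these samples, which may be technical. All groups are 1 cell line without an added agent or dose in the labels.

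Values are TPM, a unit of transcript abundance that is divided by transcript length and by the total of the sample, so that levels can be set side by side between genes. Sequencing depth cannot be read from TPM and is unknown here. Differences are given as log2 fold changes of TPM + 1, sh-ANP32B minus NC, with the standard error (SE) from limma, a linear model that shares variance across genes. A gene was called where its Benjamini-Hochberg adjusted p over all genes tested was under 0.05. ANP32B itself measured at least 383.8 TPM in the NC samples against 51.8 and 41.2 TPM in the sh-ANP32B samples, or -3.04 on the log2 scale (limma adjusted p 0.00516). Of 8 Kasumi-1 identity markers 6 had a row and CD34 and MPO were not analysed here. KIT, a receptor that marks immature myeloid cells, was low at 1.55 to 3.41 TPM, which goes against a line known to express it, whereas RUNX1T1, which in this line is read mainly from the fusion, was at 15.6 to 31.2 TPM. Of the 6, 0 were called, beside 2.14% called higher and 1.18% lower of all genes. All 6 were higher in both sh-ANP32B samples than in both NC samples, beside 33.2% of all genes. Their median log2 fold change was 0.46, beside 0.08 over all genes. Only 3 of 14 markers of B, T, epithelial, stromal, endothelial and erythroid cells had a row. Of the 3, 0 were called, beside the same 2.14% and 1.18% of all genes.

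Cells pass from G1 into DNA synthesis when cyclin D with CDK4 or CDK6, and then cyclin E with CDK2, phosphorylate the retinoblastoma protein and release the E2F factors. INK4 proteins bind CDK4 and CDK6 and keep cyclin D away from them, whereas CIP/KIP proteins bind cyclin and kinase together and chiefly block CDK2. CDKN3 removes an activating phosphate from CDK2 and CDK1, and its transcript is known to be most abundant in dividing cells. In blood cells these genes are known for holding progenitors in quiescence and for the cell cycle exit that goes with differentiation, and several are silenced or lost in leukemia.

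The promoter windows of the members whose groups did not overlap are printed first, because these are the genes whose levels the results turn on. Each runs from 250 bases before to 50 bases after an annotated start (RefSeq, GRCh38.p14), 5′ to 3′ on the strand of the gene. CDKN1A is at chr6:36678464-36678763 on the plus strand, CDKN1B at chr12:12717118-12717417 on the plus strand, CDKN2B at chr9:22009256-22009555 on the minus strand and CDKN3 at chr14:54396757-54397056 on the plus strand. Capitals mark matches on either strand to the GC box (GGGCGG), the CCAAT box (CCAAT) and the cell cycle homology region, or CHR (TTTGAA).
CDKN1A: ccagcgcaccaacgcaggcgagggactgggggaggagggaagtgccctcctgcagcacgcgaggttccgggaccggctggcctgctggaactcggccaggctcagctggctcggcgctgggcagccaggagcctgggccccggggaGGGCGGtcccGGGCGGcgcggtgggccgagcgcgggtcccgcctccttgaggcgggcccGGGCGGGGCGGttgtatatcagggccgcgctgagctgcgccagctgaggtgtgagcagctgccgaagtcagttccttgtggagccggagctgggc
CDKN1B: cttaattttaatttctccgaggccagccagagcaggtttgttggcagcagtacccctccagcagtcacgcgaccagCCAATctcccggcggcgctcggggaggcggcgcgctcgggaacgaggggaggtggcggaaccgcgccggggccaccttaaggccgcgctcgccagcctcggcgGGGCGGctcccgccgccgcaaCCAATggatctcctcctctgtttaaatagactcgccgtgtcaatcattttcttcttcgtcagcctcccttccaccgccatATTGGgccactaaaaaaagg
CDKN2B: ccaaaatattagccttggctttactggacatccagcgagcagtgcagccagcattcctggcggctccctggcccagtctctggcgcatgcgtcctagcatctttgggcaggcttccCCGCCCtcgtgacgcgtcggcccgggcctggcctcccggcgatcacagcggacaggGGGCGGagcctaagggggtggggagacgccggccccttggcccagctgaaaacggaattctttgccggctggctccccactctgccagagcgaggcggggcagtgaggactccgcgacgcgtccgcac
CDKN3: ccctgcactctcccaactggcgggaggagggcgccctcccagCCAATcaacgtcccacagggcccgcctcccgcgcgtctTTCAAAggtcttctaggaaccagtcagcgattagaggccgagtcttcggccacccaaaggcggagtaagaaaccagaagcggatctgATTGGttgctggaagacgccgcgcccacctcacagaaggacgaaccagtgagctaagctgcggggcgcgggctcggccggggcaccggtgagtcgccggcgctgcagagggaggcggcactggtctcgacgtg

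The window of CDKN1A held 4 GC box matches, the last 2 of which share 1 base, and no CCAAT or CHR match. That of CDKN1B held 1 GC box and 3 CCAAT matches, and that of CDKN2B held 2 GC boxes. CDKN3 alone among these 4 lacked a GC box and held a CHR match, together with 2 CCAAT matches. Among 35116 promoter windows of the same length, 45.0% held a GC box, 34.6% a CCAAT box and 15.2% a CHR match. None of the 4 held the E-box CACGTG, found in 7.26% of all windows, or any of the E2F motifs TTTCCCGC, TTTCGCGC, TTTGCCGC and TTTGGCGC, found in 3.31%. These matches are descriptions of the letters and do not show that a factor binds. Windows were found for all 7 members with a row, 10 in all, since CDKN2A has 2 and CDKN2C has 3. Of those not printed, the CDKN2A windows held 2 and 0 GC boxes, the CDKN2C windows 0, 6 and 1, and the CDKN2D window 3. An E-box was found in 2 of the 3 CDKN2C windows, a CCAAT box in 1 of them and in that of CDKN2D, and no CHR or E2F match in any.

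In NC cells the transcript levels of the 7 members spanned from 1.82 to 218.5 mean TPM. CDKN2A was the most abundant, followed by CDKN3, CDKN1B and CDKN2C, then CDKN2D and CDKN1A, whose NC samples overlapped each other, and CDKN2B was the lowest. In sh-ANP32B cells CDKN1B lay above CDKN3, and CDKN1A lay above CDKN2D in mean but overlapped it. The order was otherwise the same, and CDKN2A and CDKN2B stayed at the top and the bottom. The plot of levels by sample shows each of these values.

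**Figure D1:**
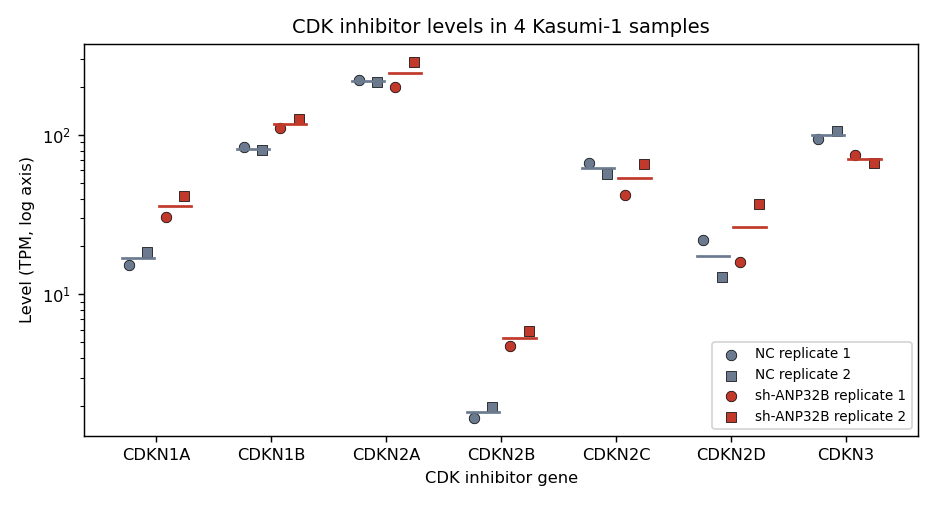
TPM on a log axis for each CDK inhibitor in each of the 4 samples, with points for NC and sh-ANP32B replicates. CDKN1A, CDKN1B and CDKN2B were higher in both sh-ANP32B samples than in both NC samples, CDKN3 was lower in both, and the groups of CDKN2A, CDKN2C and CDKN2D overlapped.

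Across the members, CDKN1A rose and no other gene passed the test in either direction, so that 1 of 7 was called higher and 0 lower. Among all genes tested 2.14% were called higher and 1.18% lower, 360 and 199 genes. With median-of-ratios scaling the split over all genes was 236 higher and 284 lower. The median log2 fold change of the 7 members was 0.51, beside 0.08 over all genes tested. That median is the value of CDKN2D, whose groups overlapped, and it was 0.30 with GC correction, 0.14 without NC replicate 2 and -0.077 without sh-ANP32B replicate 2. The study's thresholds, a log2 fold change beyond 0.5 in either direction at an unadjusted p under 0.05, were applied here to limma on log2(TPM + 1) rather than to a test on counts. They were passed upward by 3 members (CDKN1A, CDKN1B and CDKN2B), beside 12.1% of all genes, and downward by 0, beside 6.55%, CDKN3 at -0.496 lying just inside the fold threshold and just past it at -0.502 with a pseudocount of 0.1. In 3 members both sh-ANP32B samples lay above both NC samples, beside 33.2% of all genes, and in 1 both lay below, beside 21.4%. With 2 samples a group, non-overlap is common in these data. In bulk RNA, fewer or more cells expressing a gene and less or more RNA per cell cannot be told apart.

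CDKN1A encodes p21, the CIP/KIP inhibitor that is known to be induced by DNA damage and that also binds PCNA. The gene (ENSG00000124762) lies on chromosome 6 from 36676460 to 36687337 (plus strand). It measured 15.3 and 18.3 TPM in NC replicates 1 and 2, against 30.8 and 41.5 TPM in sh-ANP32B replicates 1 and 2. Both sh-ANP32B samples lay above both NC samples, at a mean of 36.1 ± 7.59 TPM against 16.8 ± 2.11 TPM (SD, n = 2 each), or 2.15 times the NC level. On the log2 scale it rose by 1.05 (SE 0.202, 95% interval 0.56 to 1.53, limma adjusted p 0.0482), larger than that of 97.0% of the genes tested. The adjusted p lay just under the threshold, and 6 of 12 other ways of processing all 4 samples kept the call, with log2 fold changes from 0.87 to 1.09. The call was lost without NC replicate 1, at 0.93 on the log2 scale (limma adjusted p 0.166). A noncoding gene on the opposite strand, DINOL, overlaps 951 bases of CDKN1A and was not analysed here, and the sources used here do not say if reads were counted by strand.

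CDKN1B encodes p27, the CIP/KIP inhibitor that enforces quiescence and whose protein level is known to be set mainly by degradation. The gene (ENSG00000111276) lies on chromosome 12 from 12685498 to 12722369 (plus strand). It measured 83.9 and 80.7 TPM in the NC samples against 110.5 and 126.1 TPM in the sh-ANP32B samples. The groups did not overlap, and sh-ANP32B cells had 1.44 times the NC level (118.3 ± 11.1 against 82.3 ± 2.30 TPM, SD, n = 2 each). Its difference of 0.52 on the log2 scale (SE 0.136, 95% interval 0.19 to 0.84) did not pass the test (limma adjusted p 0.0860), nor did it under any of the 12 alternatives that used all samples, where it ranged from 0.43 to 0.52. It passed without sh-ANP32B replicate 1, at 0.61, and without replicate 2, at 0.42, in fits that called 3947 and 3348 genes in all. GPR19, on the opposite strand over 10710 bases of the annotated gene, was low at 1.40 to 4.02 TPM.

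Among these CIP/KIP transcripts CDKN1B was the larger share, 84.5% and 81.5% of the summed level of CDKN1A and CDKN1B in NC and 78.2% and 75.2% in sh-ANP32B. Their summed level was 99.3 and 99.0 TPM in NC against 141.3 and 167.6 TPM in sh-ANP32B. The share held by CDKN1B was thus lower in both knockdown samples, although both transcripts had higher levels there.

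CDKN2B encodes p15INK4b, an inhibitor of CDK4 and CDK6 that TGF-beta signaling is known to induce and that is often methylated in AML. The gene (ENSG00000147883) lies on chromosome 9 from 22002903 to 22009305 (minus strand). It measured 1.67 and 1.97 TPM in the NC samples against 4.75 and 5.87 TPM in the sh-ANP32B samples. It had the largest fold difference of the members, 2.92 times the NC level without overlap of the groups (5.31 ± 0.795 against 1.82 ± 0.209 TPM, SD, n = 2 each), but remained the least abundant of them. The log2 fold change was 1.16 (SE 0.264, 95% interval 0.53 to 1.79, limma adjusted p 0.0652). On the scale of TPM + 1 this understates the difference of so low a gene, and with a pseudocount of 0.1 it was 1.49. It passed the test in 4 of the 12 alternatives. It passed at 1.14 with GC correction (limma adjusted p 0.0335) and at 1.16 where every sample had to reach 1 TPM (limma adjusted p 0.0422). It also passed in both fits that blocked on replicate number (limma adjusted p 0.0204 and, with GC correction, 0.0474). With the block alone the SE was larger, at 0.357, and the variance was taken wholly from the trend across genes.

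CDKN2A encodes p16INK4a, an inhibitor of CDK4 and CDK6, and from another first exon p14ARF, a protein of another reading frame. Its row is for the whole gene and does not separate these products, which start from different promoters. The gene (ENSG00000147889) lies on chromosome 9 from 21967752 to 21995301 (minus strand), beside CDKN2B. It measured 221.4 and 215.7 TPM in the NC samples against 201.8 and 289.2 TPM in sh-ANP32B replicates 1 and 2. Those sh-ANP32B samples lay on either side of the NC samples. Its log2 fold change was 0.14 (SE 0.184, 95% interval -0.30 to 0.58, limma adjusted p 0.689). It was -0.03 with GC correction and -0.11 without sh-ANP32B replicate 2, whereas without replicate 1 it was 0.40. The fits that left out a replicate held a single sh-ANP32B sample here.

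The antisense noncoding gene CDKN2B-AS1, known as ANRIL, overlaps 1163 bases of CDKN2A and the whole of CDKN2B, 6403 bases. A further antisense noncoding gene (ENSG00000264545), not analysed here, covers all 27550 bases of CDKN2A and the whole of CDKN2B. CDKN2B-AS1 measured 4.54 and 3.003 TPM in NC against 3.30 and 2.17 TPM in sh-ANP32B, with overlapping groups and a log2 difference of -0.35 (SE 0.307, limma adjusted p 0.538). Without knowledge of the strand used in counting, reads of CDKN2A and CDKN2B cannot be told apart from those of their antisense partners, and CDKN2B and CDKN2B-AS1 were both at a few TPM. MTAP, the neighboring methylthioadenosine phosphorylase gene, measured 30.4 and 27.96 TPM in NC against 28.5 and 22.3 TPM in sh-ANP32B.

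CDKN2C encodes p18INK4c, which restrains CDK6 in particular. The gene (ENSG00000123080) lies on chromosome 1 from 50960745 to 50974634 (plus strand). It measured 67.3 and 56.6 TPM in NC against 42.3 and 66.1 TPM in sh-ANP32B replicates 1 and 2. NC and sh-ANP32B overlapped, with a log2 difference of -0.22 (SE 0.228, 95% interval -0.76 to 0.33, limma adjusted p 0.616). The direction rested on 1 sample, as the difference was 0.10 without sh-ANP32B replicate 1 and -0.54 without replicate 2.

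CDKN2D encodes p19INK4d, known to oscillate with the cell cycle. The gene (ENSG00000129355) lies on chromosome 19 from 10566460 to 10569059 (minus strand). It measured 22.1 and 12.8 TPM in NC against 15.9 and 37.2 TPM in sh-ANP32B replicates 1 and 2. NC and sh-ANP32B overlapped, and the sh-ANP32B replicates differed from each other by 2.34 times, the widest spread of any member. The log2 fold change was 0.51 (SE 0.412, 95% interval -0.47 to 1.496, limma adjusted p 0.501). It was 1.10 without sh-ANP32B replicate 1 and -0.08 without replicate 2.

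The summed level of the INK4 members was 312.5 and 287.0 TPM in NC against 264.8 and 398.4 TPM in sh-ANP32B, so that the groups overlapped. CDKN2A made up 70.9% and 75.1% of this sum in NC and 76.2% and 72.6% in sh-ANP32B. CDKN2B made up 0.535% and 0.685% in NC and 1.79% and 1.47% in sh-ANP32B, higher in both knockdown samples but still a small part of the INK4 transcripts.

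CDKN3 encodes a dual-specificity phosphatase that acts on CDK2 and CDK1. The gene (ENSG00000100526) lies on chromosome 14 from 54396849 to 54420218 (plus strand), and no annotated gene overlaps it. It measured 94.6 and 106.5 TPM in NC against 74.5 and 67.3 TPM in sh-ANP32B. It was the only member whose sh-ANP32B samples both lay below the NC samples (70.9 ± 5.09 against 100.5 ± 8.42 TPM, SD, n = 2 each). The log2 difference of -0.50 (SE 0.140, 95% interval -0.83 to -0.16) did not pass the test (limma adjusted p 0.101). It passed with GC correction, at -0.51 (limma adjusted p 0.0143), and with the replicate block and GC correction together (limma adjusted p 0.0319).

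**Figure D2:**
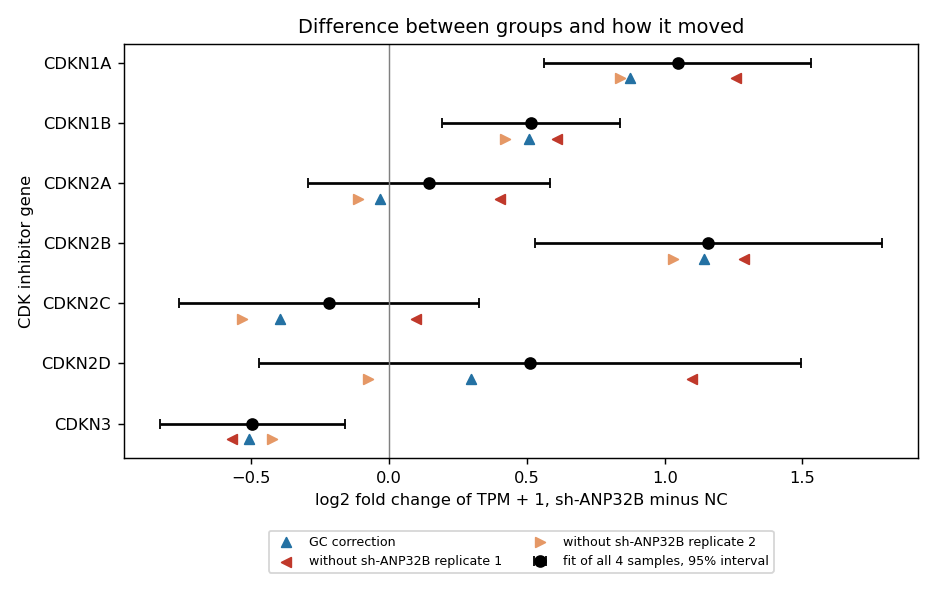
Log2 fold change of TPM + 1 (sh-ANP32B minus NC) of each CDK inhibitor on a linear axis. Black points with bars are the fit of all 4 samples and its 95% interval, and triangles give the same difference with GC correction and without either sh-ANP32B sample. The triangles of CDKN1A, CDKN1B and CDKN2B stayed above 0 and those of CDKN3 below 0, while those of CDKN2A, CDKN2C and CDKN2D fell on both sides.

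The spread between the sh-ANP32B samples moved with GC content. Across 15427 genes, the difference of sh-ANP32B replicate 2 from replicate 1 had a Spearman rho of 0.577 with the GC content of the transcript, against -0.206 for the NC samples. This is a description across genes, which are not independent replicates. The transcripts of CDKN1A, CDKN2A, CDKN2C and CDKN2D are rich in GC, from 58.1% to 61.2%, and were higher in replicate 2 by 0.42, 0.52, 0.63 and 1.18 on the log2 scale. Those of CDKN1B, CDKN2B and CDKN3 hold 42.7% to 44.2% GC and differed by 0.19, 0.26 and -0.14. With GC correction the log2 fold changes of CDKN1A, CDKN2C and CDKN2D were 0.87, -0.39 and 0.30, and CDKN1A still passed the test. The share of mitochondrial transcripts also differed between these samples, at 11.4% and 8.43% in sh-ANP32B replicates 1 and 2, against 12.9% and 13.1% in NC. The part of either in the results was not tested beyond these corrections.

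**Figure D3:**
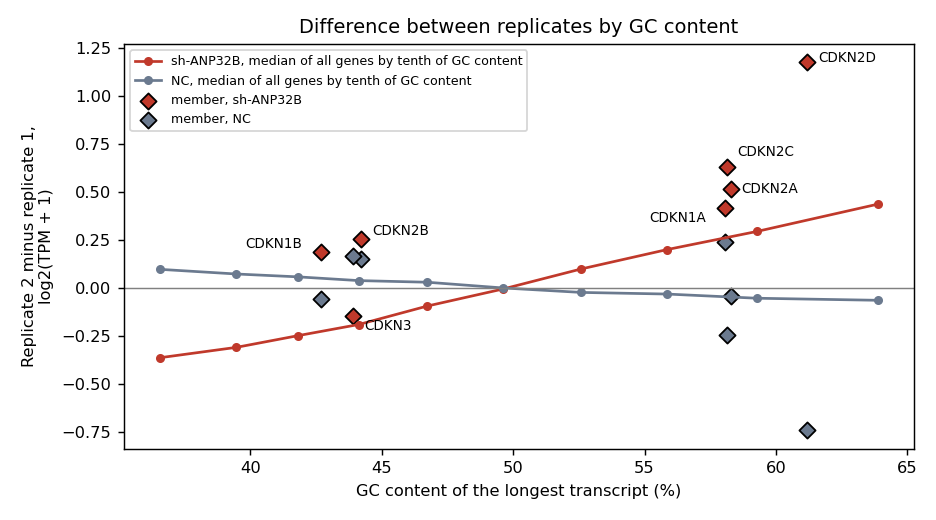
Difference of replicate 2 from replicate 1 (log2 of TPM + 1) against GC content of the longest transcript in percent, with lines through the medians of all genes binned by GC content and diamonds for the CDK inhibitors. The sh-ANP32B line climbs with GC content and the NC line falls slightly, and CDKN2D lies farthest from 0 in both groups, at 1.18 in sh-ANP32B and -0.74 in NC.

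Of 16 listed CDK and cyclin partners 15 were tested, CCND1 being under the filter at 0.565 and 0.483 TPM in NC against 0.686 and 0.980 TPM in sh-ANP32B, a higher level in both knockdown samples. Of the 15, 1 fell (CDK4) and 0 rose, beside 1.18% and 2.14% of all genes tested. A negative log2 fold change was found in 14, beside 7076 of all 16817 genes tested. The median was -0.47, beside 0.08 over all genes. CDK4, the main partner of the INK4 proteins, measured 138.2 and 138.1 TPM in NC against 72.4 and 84.3 TPM in sh-ANP32B, or -0.81 on the log2 scale (SE 0.137, limma adjusted p 0.0426). CDK6 measured 31.7 and 35.3 TPM in NC against 29.3 and 21.5 TPM in sh-ANP32B (limma adjusted p 0.267). CDK2, the main target of p21 and p27, measured 100.1 and 108.3 TPM against 71.1 and 64.6 TPM, without overlap and with a log2 difference of -0.61 (SE 0.135, limma adjusted p 0.0608).

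The E-type cyclins, which activate CDK2, had the most negative values of the list. CCNE1 measured 6.15 and 8.71 TPM in NC against 2.53 and 2.01 TPM in sh-ANP32B (log2 fold change -1.35, limma adjusted p 0.0514). CCNE2 measured 34.1 and 23.6 TPM against 16.0 and 8.88 TPM (log2 fold change -1.18, limma adjusted p 0.0816). Among the D-type cyclins CCND2 measured 19.1 and 19.0 TPM against 20.7 and 18.3 TPM, and the groups of CCND3 overlapped. No difference between the E-type and D-type cyclins was tested. Of the pocket proteins RB1, RBL1 and RBL2, the substrates at the end of this pathway, 0 of 3 were called. Over all genes 2.14% were called higher and 1.18% lower. RBL1 measured 22.2 and 25.0 TPM against 18.2 and 11.8 TPM (log2 fold change -0.65, limma adjusted p 0.160).

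The ratios of inhibitor to target transcripts were higher in both knockdown samples, where CDK2, CDK4 and CDK6 were themselves lower. These ratios of TPM are unaffected by scaling between samples but were not corrected for GC content. CDKN1A and CDKN2A hold 58.1% and 58.3% GC, against 51.5% in CDK2, 52.0% in CDK4 and 39.7% in CDK6. The ratios were chosen with the values known and are given without a test. The ratio of summed CDKN1A and CDKN1B to CDK2 was 0.992 and 0.914 in NC and 1.99 and 2.59 in sh-ANP32B. The ratio of the summed INK4 members to summed CDK4 and CDK6 was 1.84 and 1.66 in NC and 2.60 and 3.77 in sh-ANP32B, although the INK4 sum itself overlapped between groups. The ratio of CDKN3 to CDK2 moved least, at 0.945 and 0.983 in NC and 1.05 and 1.04 in sh-ANP32B, higher in both knockdown samples by 1.08 times, so that CDKN3 and CDK2 were lower by nearly the same factor. The ratio of CDKN2B to CDKN2A was 0.00755 and 0.00912 in NC and 0.0235 and 0.0203 in sh-ANP32B. Transcript ratios are not ratios of protein.

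**Figure D4:**
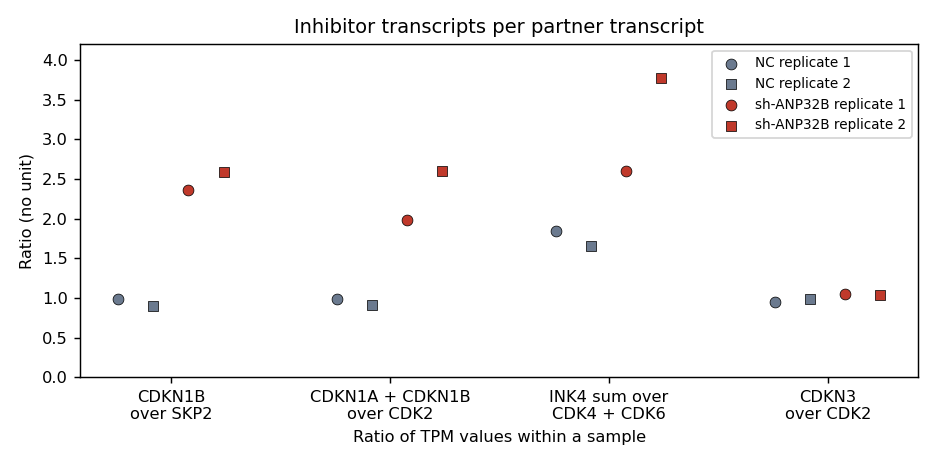
Ratios of TPM between CDK inhibitors and their partners in each of the 4 samples, on a linear axis. The ratios of CDKN1B to SKP2 and of CDKN1A and CDKN1B to CDK2 were under 1 in both NC samples and above 1.9 in both sh-ANP32B samples, and the ratio of CDKN3 to CDK2 moved little.

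Genes of the ubiquitin ligases that destroy p21 and p27, and of their cofactors, included some that fell. Of 15 listed genes of inhibitor turnover, 4 fell, 0 rose and 11 were not called, with a median log2 fold change of -0.23. Over all genes tested 1.18% fell and 2.14% rose, with a median of 0.08. SKP2, the F-box protein that recognizes p27 and p21, measured 85.5 and 89.6 TPM in NC against 46.8 and 48.8 TPM in sh-ANP32B, or -0.86 on the log2 scale (SE 0.133, limma adjusted p 0.0371). Its cofactor CKS1B measured 348.9 and 366.1 TPM against 239.3 and 223.4 TPM, or -0.63 on the log2 scale (SE 0.121, limma adjusted p 0.0482). DTL, the CUL4 receptor that acts on p21 bound to PCNA, measured 63.6 and 63.3 TPM against 35.8 and 27.97 TPM, or -0.98 on the log2 scale (SE 0.167, limma adjusted p 0.0430). PCNA, the replication clamp, measured 311.9 and 301.9 TPM against 161.9 and 154.1 TPM, or -0.95 on the log2 scale (SE 0.1196, limma adjusted p 0.0299). DTL, PCNA and SKP2 are also known to be transcribed most in cycling cells. The core subunits CUL1, RBX1, DDB1 and CUL4A were not among the called genes, although the groups of each did not overlap. RBX1 measured 59.6 and 62.4 TPM against 37.1 and 41.1 TPM (log2 fold change -0.63, limma adjusted p 0.0638), a difference like that of CKS1B. CUL1 and DDB1 were lower and CUL4A was higher. Of the 15 genes, 8 were lower without overlap and 3 higher, beside 21.4% and 33.2% of all genes. The ratio of CDKN1B to SKP2 was 0.982 and 0.900 in NC and 2.36 and 2.59 in sh-ANP32B, and that of CDKN1A to PCNA was 0.0492 and 0.0607 against 0.190 and 0.269. CDKN1A holds 58.1% GC against 45.25% in PCNA, and these ratios were not corrected for GC content.

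Among transcriptional regulators, MYC fell and KLF6 and KDM6B rose. MYC, which is known to repress CDKN1A and CDKN2B through ZBTB17, measured 130.8 and 143.8 TPM in NC against 56.7 and 63.2 TPM in sh-ANP32B, or -1.18 on the log2 scale (SE 0.137, limma adjusted p 0.0261). It was the only gene called of 14 tested repressors of the INK4 locus and CDKN1C, a list otherwise made mainly of Polycomb subunits with a median of -0.13. EZH2, the Polycomb methyltransferase, measured 98.5 and 104.9 TPM against 82.0 and 65.9 TPM (log2 fold change -0.46, limma adjusted p 0.138), and the groups of BMI1 overlapped. CBX7 and CBX8 of this list were higher without overlap (log2 fold change 0.58 each, limma adjusted p 0.203 and 0.145). Of the 14 genes, 4 were higher without overlap and 4 lower, beside 33.2% and 21.4% of all genes.

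Of 15 tested activators of the inhibitors 2 rose and 0 fell, with a median log2 fold change of 0.29. KLF6, a zinc finger factor known to induce CDKN1A, measured 35.4 and 41.4 TPM in NC against 68.3 and 71.1 TPM in sh-ANP32B, or 0.85 on the log2 scale (SE 0.148, limma adjusted p 0.0440). KDM6B, a histone demethylase that opposes EZH2, measured 32.4 and 31.1 TPM against 56.4 and 73.1 TPM, or 0.99 on the log2 scale (SE 0.171, limma adjusted p 0.0435). The calls of these lists stand beside 2.14% and 1.18% over all genes, and the number of listed genes is small.

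The DNA damage response genes of this report were listed as p53 response genes, a group with which CDKN1A is known to be induced. Of 21 tested 1 rose and 0 fell, beside 2.14% and 1.18% of all genes. Log2 fold changes ran from -1.25 to 1.33 with a median of 0.03, beside 0.08 over all genes. BTG2, an antiproliferative gene, measured 7.38 and 11.5 TPM in NC against 23.3 and 26.3 TPM in sh-ANP32B, or 1.33 on the log2 scale (SE 0.236, limma adjusted p 0.0440). BBC3, which promotes apoptosis, measured 14.4 and 14.0 TPM against 21.5 and 46.3 TPM (log2 fold change 1.10, limma adjusted p 0.116). TNFRSF10B, a death receptor, measured 85.2 and 86.5 TPM against 127.0 and 140.1 TPM (log2 fold change 0.63, limma adjusted p 0.0545). Both were without overlap. AEN was lower without overlap, at 8.70 and 6.875 TPM against 2.05 and 3.43 TPM (log2 fold change -1.25, limma adjusted p 0.0648). Of the 21, 5 were higher without overlap and 3 lower, beside 33.2% and 21.4% of all genes. The groups of MDM2, a ubiquitin ligase, overlapped at 10.9 and 12.8 TPM against 14.8 and 10.6 TPM.

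**Figure D5:**
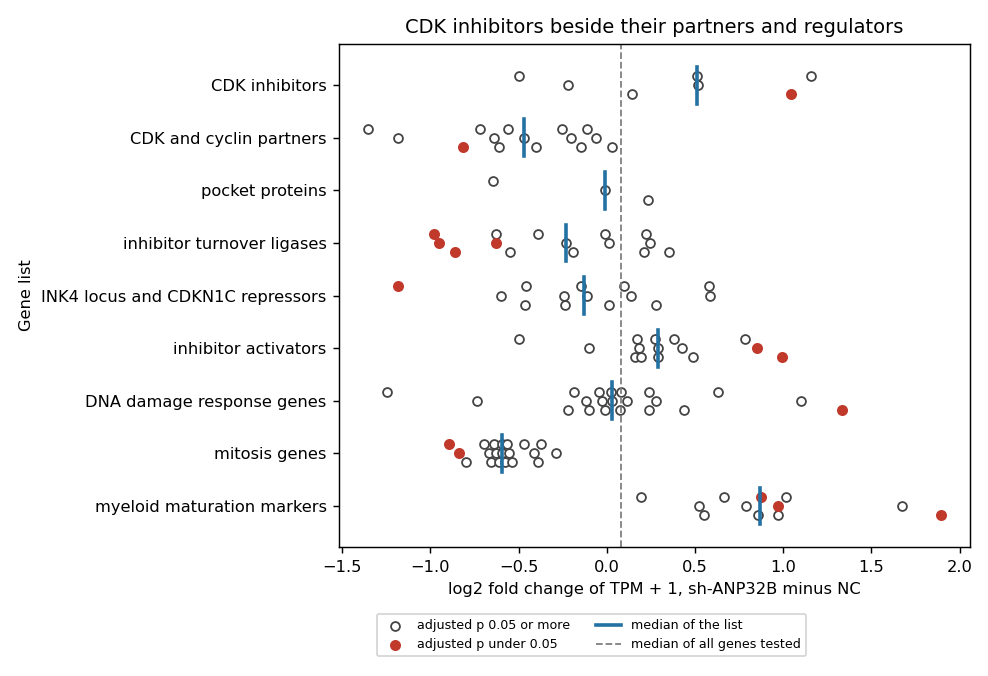
Log2 fold change of TPM + 1 (sh-ANP32B minus NC) of every tested gene of each list, with filled points for adjusted p under 0.05, a bar at the median of the list and a dashed line at the median of all genes tested, 0.08. The CDK inhibitors had a median of 0.51 (-0.077 without sh-ANP32B replicate 2 and 0.30 with GC correction), the CDK and cyclin partners -0.47, the mitosis genes -0.59 and the myeloid maturation markers 0.87.

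Of 20 mitosis genes tested, 2 fell (MKI67 and BUB1) and 0 rose, beside 1.18% and 2.14% of all genes. The median log2 fold change was -0.59, and 19 had both sh-ANP32B samples below both NC samples, beside 21.4% of all genes. MKI67, the proliferation marker, measured 144.4 and 150.7 TPM in NC against 84.0 and 74.0 TPM in sh-ANP32B, or -0.90 on the log2 scale (SE 0.134, limma adjusted p 0.0354). BUB1, a spindle checkpoint kinase, measured 118.6 and 126.8 TPM against 75.4 and 61.6 TPM (log2 fold change -0.84, limma adjusted p 0.0440). CDKN3, at -0.50, lay within the range of this list, -0.90 to -0.29, and the part of fewer dividing cells in its difference was not tested.

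Of 12 tested markers of myeloid maturation 3 rose (LYZ, ITGAX and CSF3R) and 0 fell, beside 2.14% and 1.18% of all genes. CD14, FCGR3A and VCAN were not analysed here. All 12 had a positive log2 fold change, beside 9741 of all 16817 genes tested. The median of the 12 was 0.87, beside 0.08 over all genes. Their summed level was 955.2 and 1017 TPM in NC against 1901 and 1931 TPM in sh-ANP32B, most of it LYZ. LYZ, the lysozyme of granulocytes and monocytes, measured 669.4 and 696.8 TPM against 1360.0 and 1316 TPM (log2 fold change 0.97, limma adjusted p 0.0281). ITGAX, the integrin CD11c, measured 10.4 and 10.6 TPM against 41.7 and 41.6 TPM (log2 fold change 1.89, limma adjusted p 0.0154), and CSF3R, the receptor of G-CSF, also rose (log2 fold change 0.88, limma adjusted p 0.0455). The part of a change in maturation in the levels of the inhibitors was not tested.

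The 11 tested genes listed as neighbors of the inhibitor genes had 0 calls, beside 2.14% called higher and 1.18% lower of all genes. With 11 genes, 0 calls do not set the list apart from all genes. Its median log2 fold change was -0.20, beside 0.08 over all genes. The listed neighbors include CDKN2AIP, which lies on chromosome 4, where no member lies, and so is not a neighbor by position. KCNQ1, which lies in the imprinted domain of CDKN1C, measured 23.5 and 22.2 TPM in NC against 34.03 and 48.2 TPM in sh-ANP32B (log2 fold change 0.80, limma adjusted p 0.0771). It was named after its value was seen.

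The members with the largest and the smallest log2 fold change, CDKN2B and CDKN3, were compared over the 4 samples with 9626 genes outside the lists with a mean of at least 10 TPM. Likeness was the root mean square distance between centred profiles of log2(TPM + 1). The genes most like CDKN2B were DNHD1, SH3PXD2A and EME2, at distances of 0.0518, 0.0546 and 0.0563, and 34 genes lay within 0.1. Those most like CDKN3 were ARHGEF39, MSH6 and TPM3, at 0.00854, 0.0172 and 0.0173, and 396 genes lay within 0.1. With 4 samples many genes share a profile, and likeness carries no statement on function or control.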

How the data were processed

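Kasumi-1 RNA was sequenced in 2 NC and 2 sh-ANP32B samples, grouped by their labels. According to the submitters' processing notes the authors used HISAT2 2.0.5 and the hg38 genome. The deposited values are TPM, identified from column sums of 997812 to 998314. The quantification program, its annotation, strand setting and filters are not given in the sources used here. Symbols, positions and GC content came from GENCODE release 44, which held 16986 of 18567 gene IDs.

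The filter kept genes that reached 1 TPM in 2 or more samples, and log2(TPM + 1) was compared between groups in limma 3.58.1 (R 4.3.3) with an abundance trend, two-sided, with Benjamini-Hochberg adjustment. The script was tested on simulated data. The members and lists were chosen with earlier results of these data known. Named were the 8 members, called genes of each list, any partner or pocket protein and, for the members with the extreme changes, the 3 genes with the nearest profiles. MTAP, CDKN2B-AS1, GPR19, EZH2, BMI1, MDM2, BBC3, TNFRSF10B, AEN, KIT, RUNX1T1, KCNQ1 and CDKN2AIP were added for context once values were known. The same holds for CBX7, CBX8, CUL1, RBX1, DDB1 and CUL4A. Alternatives changed scaling, filter, pseudocount, GC content, replicate block, variance model and samples. With counts absent, no count test was run. Some listed genes are not reported here.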

Additional observations from a re-analysis of the deposited data

How the results depend on the processing

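Replicates were 2 a group and depth was unknown, and leaving out a sample left 1 residual degree of freedom, with the lone sample assumed to vary like the other group. CDKN1A, CDKN1B and CDKN2B stayed above 0 and CDKN3 below 0 under all 12 alternatives that used every sample and in all 4 fits that left out a sample. No group had enough samples for a check of single outlying values. The causes of the changes below were not tested.

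Of the 7 tested CDK inhibitors 1 was called in the analysis given above, beside 559 of all 16817 genes. Over all genes the count was 812 of 14476 with at least 1 TPM in every sample and 1473 of 16817 with the replicate block. With GC correction it was 2563 of 15427, and with both GC correction and the block 1742 of 15427. The number of called members was 0 with median-of-ratios scaling, upper-quartile scaling and quantile normalization. It was also 0 with mitochondrial genes left out, a pseudocount of 0.1 and no abundance trend. It was 2 with at least 1 TPM in every sample and with the replicate block, 3 with GC correction, alone or together with the block, and 0 to 6 when a replicate was left out.

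The log2 fold change of CDKN1A lost its call at 0.96 with median-of-ratios scaling, 0.99 with upper-quartile scaling, 0.98 with quantile normalization, 1.00 without mitochondrial genes, 1.09 with a pseudocount of 0.1 and 1.05 with no abundance trend, and limma adjusted p-values over the 12 alternatives that used every sample ran from 0.00138 to 0.121. Leaving out a replicate gave 0.84 to 1.26, with a limma adjusted p of 0.166 without NC replicate 1, where the call was also lost. CDKN2B passed the test at 1.16 with at least 1 TPM in every sample, 1.14 with GC correction, 1.16 under the replicate block and 1.14 under the block with GC correction, and leaving out a replicate gave 1.03 to 1.29. CDKN3 passed at -0.51 with GC correction and at -0.51 with the block and GC correction, and ranged from -0.58 to -0.41 when a replicate was left out. CDKN2A reversed to -0.033 with GC correction and to -0.033 with the block and GC correction, and ranged from -0.11 to 0.40 when a replicate was left out. The leave-out ranges were 0.42 to 0.61 for CDKN1B, -0.54 to 0.10 for CDKN2C and -0.077 to 1.10 for CDKN2D.

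Over all genes, 559 were called. GC correction gave 2563 calls, the replicate block 1473 and no abundance trend 0 (3701 at an unadjusted limma p under 0.05). There were 1742 with the block and GC correction together, and 282 to 3947 when a replicate was left out, the highest without sh-ANP32B replicate 1.

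Counts called in the lists moved as follows, and they stand beside the counts over all genes given above, which moved too. The CDK and cyclin partners, 1 above, had 4 with median-of-ratios scaling, 2 with upper-quartile scaling, 2 with quantile normalization, 4 with at least 1 TPM in every sample, 5 under the replicate block, 9 after GC correction, 8 with both, 0 with no trend and 1 to 10 without a replicate. The pocket proteins had 1 with GC correction and 0 to 1 without a replicate. The turnover genes, 4 above, had 7 with GC correction, 7 with the block and GC correction, 0 with no trend and 0 to 7 without a replicate. The repressors, 1 above, had 4 with GC correction, 3 with the block and GC correction, 0 with no trend and 1 to 9 without a replicate. The activators, 2 above, had 1 with median-of-ratios scaling, 0 with no trend and 0 to 6 without a replicate. The DNA damage response genes, 1 above, had 3 with at least 1 TPM in every sample, 4 with GC correction, 4 with the block, 4 with the block and GC correction, 0 with no trend and 0 to 4 without a replicate. The mitosis genes, 2 above, had 4 with median-of-ratios scaling, 5 with at least 1 TPM in every sample, 19 with GC correction, 8 with the block, 18 with the block and GC correction, 0 with no trend and 0 to 19 without a replicate. The locus neighbors, 0 above, had 1 with GC correction, 1 with the block, 1 with both and 0 to 3 without a replicate. The Kasumi-1 identity genes, 0 above, had 2 with GC correction, 1 with the block, 2 with both and 0 to 3 without a replicate. The maturation markers, 3 above, had 9 with GC correction, 9 with the block, 7 with both, 0 with no trend and 2 to 10 without a replicate, and markers of other cell types 0 to 1 without a replicate.

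The groups share replicate numbers, but no source used here says that equal numbers were handled together. Same-numbered deviations from the group means correlated across genes at -0.0925 (Pearson r) and -0.168 (Spearman rho), so the numbers were not taken as pairs. The replicate block changed the call of CDKN2B among the members and of none of the others. In that fit the variance was taken wholly from the trend across genes. The SE was 0.357 against 0.264 for CDKN2B and 0.251 against 0.202 for CDKN1A, so their lower p-values do not reflect closer estimates.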
